A study of Mus musculus with 2 samples.

Results

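Translation factors and aminoacyl-tRNA synthetases were examined in the livers of normal and diabetic mice. Their 68 genes were taken from the 8551 genes of the deposited expression table by symbol alone, as the Eif and Eef genes and the synthetase genes without Eif2s3y and Eif2ak3. The rule uses no measured value, but it was set with earlier results of these data known. They comprised 34 initiation genes, 5 elongation genes, 15 cytosolic synthetase genes and 14 mitochondrial synthetase genes. Factors that the table does not list under such symbols, among them Eef1a1, Eef1g, Eef2, Eprs, Kars, Eif2s1 and Eif4e, were not analysed here.

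Both groups were male mice of C57BL/6 background, sacrificed at 9 weeks of age about 3 h into the light cycle. The normal group was wild type and the diabetic group was db/db, a genotype that lacks the signalling form of the leptin receptor in every tissue, so that obesity and diabetes arise together (Lepr was not analysed here). Liver poly(A) RNA was cut with DpnII after cDNA synthesis and sequenced as digital gene expression tags, with 1 library per group. No difference between the libraries therefore has a replicate check, and whether a library held the RNA of 1 mouse or several is not stated in the sources used here.

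Values are given in TPM, the tags of a gene per 1000000 clean tags. One read was worth 0.0973 TPM in normal liver against 0.0740 TPM in diabetic liver, from which 10278531 and 13508232 clean tags were computed. The 95% intervals were computed from these reads and hold for counting error alone, because tags carried no molecular identifiers and may be copies of one molecule. The median gene of the 68 had 141 reads (normal) and 239.5 reads (diabetic), and 15 of the 68 had fewer than 50 reads in at least one library. None had 3 reads or fewer, which would be 0.292 TPM (normal) and 0.222 TPM (diabetic). All 5 hepatocyte markers looked up were listed but did not keep a common level: Alb was at 6801 TPM (normal) and 6912 TPM (diabetic) and Ttr at 257 and 239 TPM, while Apob was at 804 and 147 TPM, Hnf4a at 96.8 and 46.2 TPM and Cps1 at 130.3 and 317 TPM. Of 7 macrophage marker symbols 4 were listed, and they summed to 36.1 TPM in normal liver against 19.0 TPM in diabetic liver. The 5 endothelial markers summed to 89.5 and 80.5 TPM and the 4 stellate cell markers to 49.7 and 64.2 TPM. Both of these sums held markers of opposite direction. Kdr was at 12.0 and 22.1 TPM against 47.7 and 30.65 TPM for Clec4g, and Col1a1 at 3.11 and 9.40 TPM against 12.8 and 7.11 TPM for Reln. The part of these cells in the results was not tested, and in whole liver fewer cells of a type and less RNA per cell cannot be told apart.

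Protein synthesis begins when eIF2 brings the initiator tRNA to the small ribosomal subunit, while eIF4E, eIF4G and eIF4A load the capped mRNA and eIF3 holds the parts together. The guanine nucleotide exchange factor eIF2B recharges eIF2, and kinases that phosphorylate eIF2 alpha slow initiation by blocking this step. The elongation factors eEF1 and eEF2 then deliver aminoacyl-tRNA and move the ribosome. Aminoacyl-tRNA synthetases load each tRNA with its amino acid, mostly with separate genes for the cytosol and the mitochondria, and the liver uses this machinery to make most plasma proteins.

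The tags that such a library reads start at a GATC site, where DpnII cuts. The last site in each reference transcript was located in GENCODE M21 (GRCm38), and the 20 bases from it are shown for genes whose values carry the results, with the cut site in capitals. The tag length used by the authors is not given in the sources used here, and the deposited table does not say which sites were counted. Per the labels the cDNA was primed at random positions, so a tag may also come from a site further upstream.
Eif4h, chr5:134619889-134619908, minus strand, 3′ UTR: GATCttttaaataaaagaga
Eif4e2, chr1:87228038-87228057, plus strand, 3′ UTR: GATCacaaataaatggtgct
Eif2b3, chr4:117086708-117086727, plus strand, coding exon: GATCgtggggaatgaccagc
Eif2b4, chr5:31187636-31187655, minus strand, coding exon: GATCccttgcagttctgtgc
Eef1b2, chr1:63180403-63180422, plus strand, 3′ UTR: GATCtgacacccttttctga
Iars, chr13:49728696-49728715, plus strand, coding exon: GATCgtgtgtgcctggccct
Rars2, chr4:34656195-34656214, plus strand, coding exon: GATCgtgttttccagagccg
Pars2, chr4:106655239-106655258, plus strand, 3′ UTR: GATCatgttctgttgattga
Fars2, chr13:36410202-36410221, plus strand, coding exon: GATCttatagacaagtttga
Sars, chr3:108425997-108426016, minus strand, 3′ UTR: GATCtgtatcctccgctcta
Sars2, chr7:28753725-28753744, plus strand, 3′ UTR: GATCcctctaccattgaggc

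All 68 genes had such a site, with a median of 7 GATC sites per transcript, and the last tag lay within the 3′ UTR in 34 transcripts and within the coding sequence in 32. For 64 genes the tag occurred in the transcripts of no other gene. The exceptions were Eif4a1, Eif3m, Eif6 and Eif4ebp3, whose tags also occur in Eif4a-ps4, Gm7658, Gm8115 and AC115631.1 respectively, so their values are less certain. Eif4ebp1 and Eif4ebp3 had a single site.

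Over the 68 genes, 20 were at least 1.5-fold higher in the diabetic library, 29.4% of them, where 34.4% of all listed genes were that much higher. At least 1.5-fold lower were 11 of the 68, 16.2%, where 15.3% of all listed genes were that much lower. Both shares lay near those of all listed genes. Their median log2 ratio of diabetic over normal TPM was 0.13, and that of all listed genes was 0.25. Scaling the libraries to each other by trimmed mean of M values (TMM) lowers each log2 ratio by 0.25, and the other 3 scalings tried lower it by 0.26 to 0.31. With TMM the 68 genes split into 12 higher and 15 lower, where 24% and 23.7% of all listed genes were higher and lower. Of the 20 higher genes, 10 remained at least 1.5-fold higher under all 4 scalings. Of all listed genes 2941 were higher, and 1874 remained so under median-ratio scaling, which lowers ratios most. Among the 10 were Eef2k and Vars2, with 5 and 7 reads in the normal library. A further 4 of the 68 genes became at least 1.5-fold lower under all 4 scalings. Over all listed genes the number lower rose from 1310 to 2023 under TMM, which lowers ratios least.

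**Figure D1:**
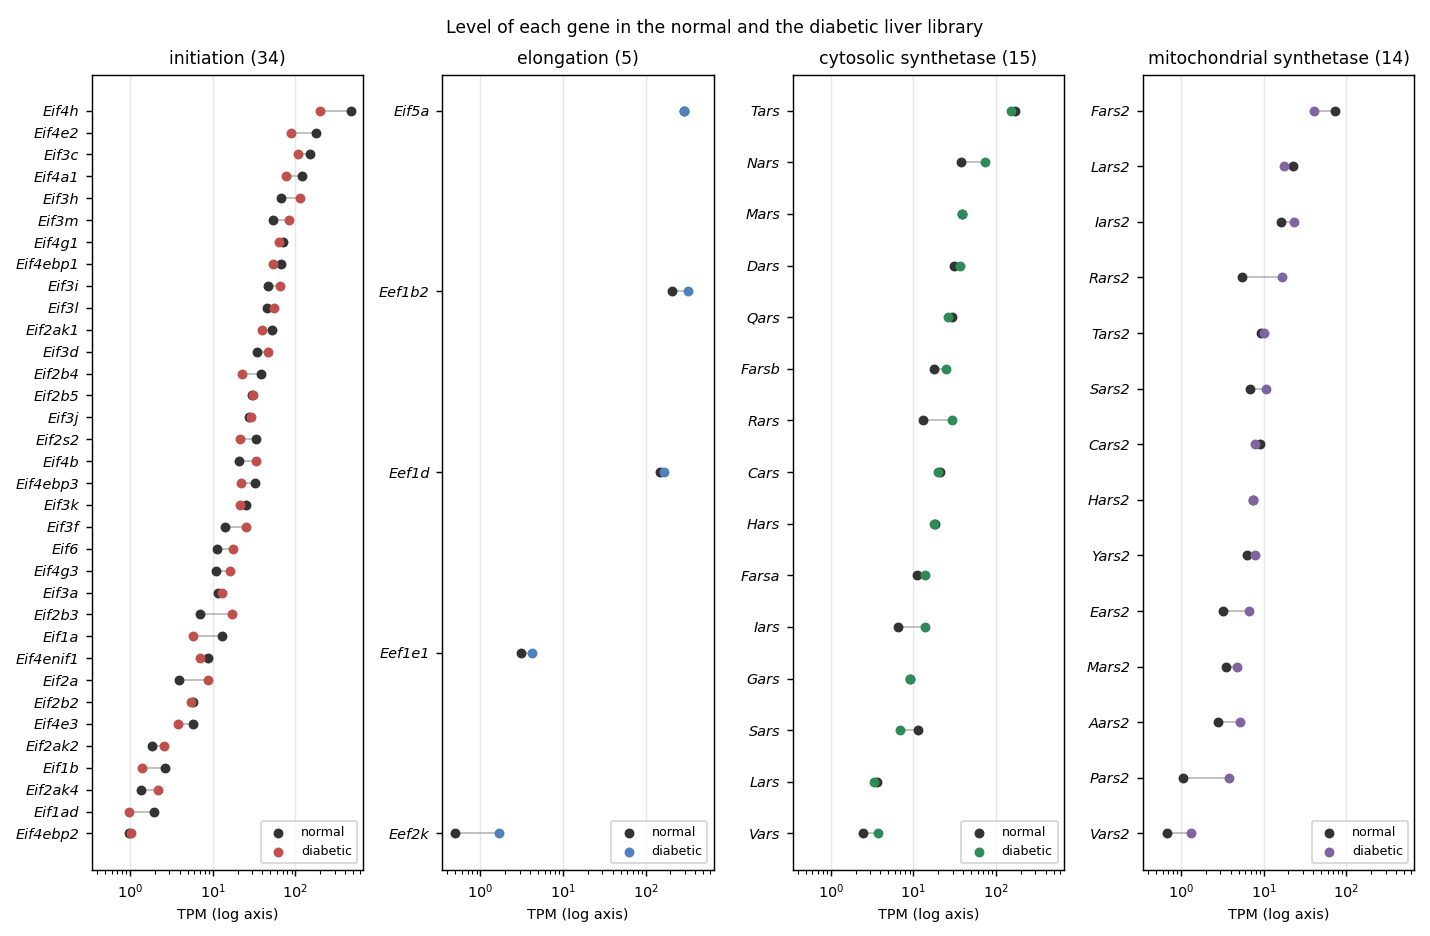
Level of each of the 68 genes in TPM on a log axis, in the normal library (dark points) and the diabetic library (coloured points), in 4 panels by group and ordered by mean level. Eif4h, at 474 TPM and 201 TPM, shows a wide gap, while Eif5a lay at nearly the same level in both libraries.

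By group the counts were uneven, and differences between groups were not tested. Of the 34 initiation genes 8 were higher (23.5%) and 9 lower (26.5%), where 34.4% and 15.3% of all listed genes were. Of the 5 elongation genes 2 were higher (40%) and 0 lower. For cytosolic synthetases 4 of 15 genes were higher (26.7%) and 1 lower (6.67%). For mitochondrial synthetases 6 of 14 were higher (42.9%) and 1 lower (7.14%). Where the mean had to reach 5 TPM, 1 elongation gene and 2 mitochondrial synthetase genes were higher, out of fewer genes than the 5 and 14 above. The share of all listed genes at that mean was not computed. The median log2 ratio of the mitochondrial genes that reached it was 0.10. Median log2 ratios were -0.03 for initiation, 0.44 for elongation, 0.03 for cytosolic synthetases and 0.48 for mitochondrial synthetases. The elongation median is the value of Eef1e1, with 32 and 57 reads, and was 0.20 where the mean had to reach 5 TPM. With an FDR under 0.001 required in addition, from an exact binomial test on the reads of the 2 libraries, 14 of the 68 genes were higher and 7 lower, against 22.9% and 8.19% of all listed genes. This test compares the 2 libraries and not the conditions. Summed over the group, initiation genes took 1673 TPM (normal) and 1305 TPM (diabetic), elongation genes 649.7 and 791 TPM, cytosolic synthetases 423 and 470.2 TPM and mitochondrial synthetases 169 and 163 TPM. Much of the first difference was 1 gene, since without Eif4h the initiation genes summed to 1199 TPM and 1105 TPM.

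**Figure D2:**
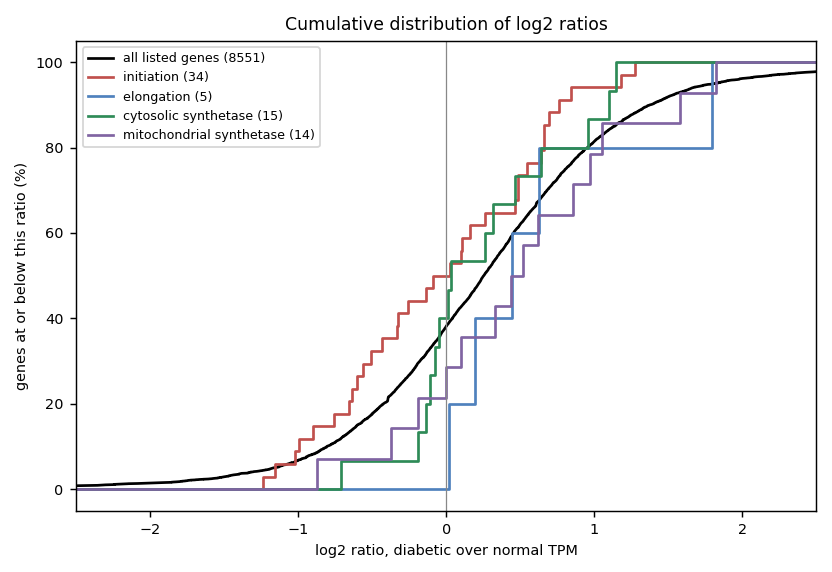
Share of genes at or below each log2 ratio of diabetic over normal TPM, for all 8551 listed genes (black) and the 4 groups of translation genes. The medians are 0.25 for all genes, -0.03 for initiation, 0.44 for elongation, 0.03 for cytosolic and 0.48 for mitochondrial synthetases. The elongation median is the value of Eef1e1. Where the mean had to reach 5 TPM, the medians were 0.20 for elongation and 0.10 for mitochondrial synthetases.

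Of the 7 eIF4 genes analysed for cap binding, helicase and scaffold, 4 were at least 1.5-fold lower in the diabetic library and 1 higher. Of all listed genes 15.3% and 34.4% were. Eif4e itself was not among the 7, so the cap-binding genes read here were its homologues. Eif4h, whose product stimulates the eIF4A helicase, was the most abundant of the 68 genes in the normal library, at 474 TPM, and stood at 201 TPM in the diabetic library. This 2.36-fold lower level corresponds to a log2 ratio of -1.24 (95% interval, -1.31 to -1.17), and only 4.4% of all listed genes had a lower ratio. The share of Eif4h in the summed TPM of the 68 genes was 16.3% in normal and 7.35% in diabetic liver. Eif4e2, a cap-binding homologue of eIF4E that does not recruit eIF4G, was at 179 TPM in normal and 89.7 TPM in diabetic liver, a log2 ratio of -0.99 (-1.10 to -0.89). Eif4a1, the helicase itself, was at 122 TPM (normal) and 77.1 TPM (diabetic), a log2 ratio of -0.66 (-0.78 to -0.54). Eif4e3, another eIF4E homologue, had only 60 and 52 reads, and the interval of its log2 ratio of -0.60 reached from -1.16 to -0.04. All 4 genes also stayed at least 1.5-fold lower under the other scalings, which lower every ratio.

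The remaining eIF4 genes went the other way or lay near equality. Eif4b, like Eif4h a helper of the helicase, was at 20.9 TPM in normal liver against 33.8 TPM in diabetic liver, a log2 ratio of 0.69 (0.46 to 0.93) that was 0.44 under TMM scaling. Eif4h was thus 22.6 times the level of Eif4b in normal liver and 5.93 times in diabetic liver. The difference between their log2 ratios, 1.93 (1.68 to 2.18), does not depend on how the libraries are scaled. The scaffold gene Eif4g1 was at 70.6 TPM (normal) and 64.3 TPM (diabetic), with an interval of -0.28 to 0.01 around its log2 ratio of -0.14. For the related Eif4g3, at 11.1 and 16.2 TPM, the log2 ratio was 0.55 (0.21 to 0.89). The pairs of genes set against each other here and for the subunits below were chosen after their values were seen.

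None of the 4 genes for eIF4E-binding proteins passed 1.5-fold in the deposited values, and 1 under TMM and 3 under each of the other scalings were at least 1.5-fold lower. Eif4ebp1, the repressor that mTOR inactivates by phosphorylation, was at 67.9 TPM in normal and 54.0 TPM in diabetic liver, a log2 ratio of -0.33 (-0.48 to -0.18) that was -0.58 under TMM and -0.64 under median-ratio scaling. Eif4ebp3 was at 32.3 TPM and 21.8 TPM, a log2 ratio of -0.56 (-0.80 to -0.33), and was at least 1.5-fold lower under each of the 4 scalings. Eif4enif1, which carries eIF4E into the nucleus, had a log2 ratio of -0.33 (-0.76 to 0.10), also past 1.5-fold under the scalings other than TMM. Eif4ebp2, with 10 and 14 reads, had an interval of -1.18 to 1.42 and could not be placed at this depth.

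**Figure D3:**
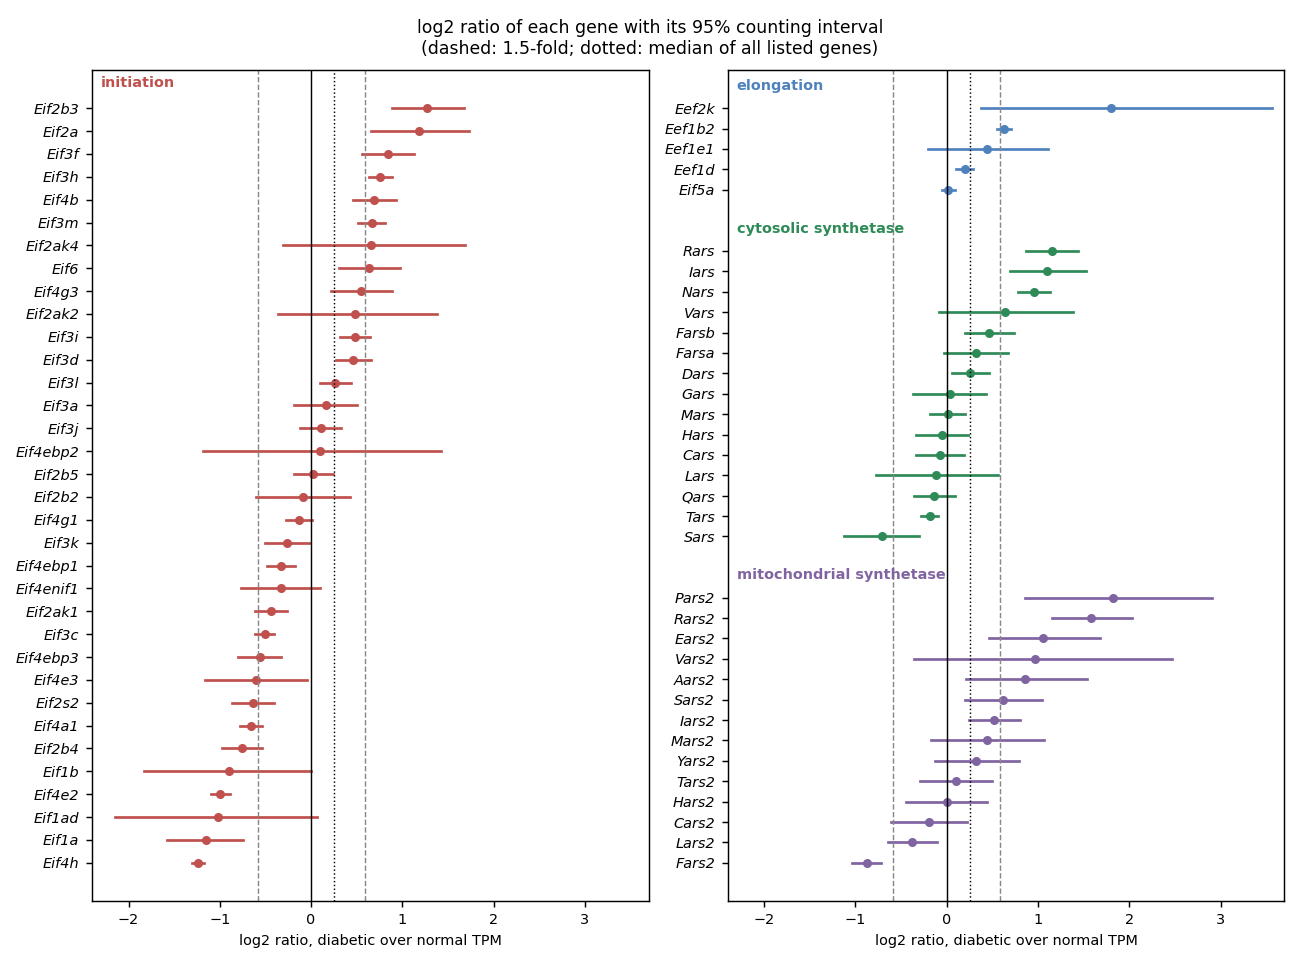
Log2 ratio of diabetic over normal TPM for each of the 68 genes (points) with its 95% counting interval (bars), initiation on the left and the other 3 groups on the right. Dashed lines mark 1.5-fold and the dotted line the median of all listed genes, 0.25. Eif4h lies lowest at -1.24 and Pars2 highest at 1.82, with wide bars for genes of few reads such as Eef2k.

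Among the genes of eIF2 and its exchange factor, single subunits lay apart. Eif2s2, the beta subunit of eIF2 and the only subunit gene of that complex analysed, was at 33.5 TPM in normal liver against 21.5 TPM in diabetic liver, a log2 ratio of -0.64 (-0.87 to -0.41). For eIF2B, Eif2b4, the delta subunit, was at 38.8 TPM (normal) and 22.9 TPM (diabetic), a log2 ratio of -0.76 (-0.98 to -0.54). Eif2b3, the gamma subunit, was at 7.10 TPM in normal and 17.2 TPM in diabetic liver, a 2.42-fold higher level (log2 ratio 1.27, 0.89 to 1.67). Eif2b5, the catalytic epsilon subunit, was at 30.1 and 30.6 TPM, and Eif2b2, the beta subunit, at 5.84 and 5.48 TPM. In normal liver Eif2b4 was at 5.47 times the level of Eif2b3, and in diabetic liver at 1.34 times. The difference of their log2 ratios was 2.03 (1.58 to 2.49). Against the nearly equal Eif2b5, Eif2b3 differed by 1.25 (0.80 to 1.71) and Eif2b4 by -0.78 (-1.09 to -0.47).

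The kinases that phosphorylate eIF2 alpha showed no common direction. Eif2ak1, the heme-regulated kinase, was at 52.9 TPM in normal liver against 39.1 TPM in diabetic liver, a log2 ratio of -0.44 (-0.61 to -0.26). It was less than 1.5-fold lower in the deposited values and at least 1.5-fold lower under each of the 4 scalings. Eif2ak4, which senses uncharged tRNA, had 14 and 29 reads and a log2 ratio of 0.66 (-0.31 to 1.69), and Eif2ak2, which senses double-stranded RNA, had 19 and 35 reads and a ratio of 0.49 (-0.36 to 1.38). The interval of either ratio included 0, and Eif2ak4 was within 1.5-fold under each scaling.

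Of the 5 remaining initiation genes outside eIF3, all passed 1.5-fold, 3 of them lower. Of all listed genes 49.7% passed 1.5-fold in either direction, and 15.3% were lower by that much. Eif1a, which helps the small subunit to scan for the start codon, was at 13.0 TPM (normal) and 5.85 TPM (diabetic), a log2 ratio of -1.16 (-1.58 to -0.74). Eif1b, a close relative of the start codon factor eIF1, had 27 and 19 reads and a log2 ratio of -0.90, with an interval from -1.83 to just below 0. Eif1ad, which carries an eIF1A-like domain, had 20 and 13 reads and a log2 ratio of -1.02 (-2.15 to 0.06). At 0.96 TPM in the diabetic library, Eif1ad reached the mean of 1 TPM needed for listing only through the normal library. In the other direction, Eif2a, a factor for initiation without eIF2, was at 3.89 TPM in normal and 8.81 TPM in diabetic liver, a log2 ratio of 1.18 (0.65 to 1.73). Eif6, which keeps the ribosomal subunits apart, was at 11.2 and 17.4 TPM, a log2 ratio of 0.64 (0.31 to 0.97), and was under 1.5-fold after TMM scaling, at 0.38.

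The 10 eIF3 genes were mostly somewhat higher in the diabetic library, with 8 ratios above 0 and a median log2 ratio of 0.36, which was 0.11 under TMM scaling. Of all 8551 listed genes 5284 had ratios above 0, with a median of 0.25, and the 3 eIF3 genes past 1.5-fold are 30% of the 10, where 34.4% of all listed genes were that much higher. Eif3f, at 14.2 TPM in normal liver against 25.5 TPM in diabetic liver, had a log2 ratio of 0.84 (0.56 to 1.13). Eif3h was at 67.1 and 113.6 TPM, a log2 ratio of 0.76 (0.63 to 0.89), and Eif3m at 53.1 and 84.1 TPM, a log2 ratio of 0.66 (0.51 to 0.81). These 3 were the only eIF3 genes at least 1.5-fold higher in the deposited values. Under TMM scaling only Eif3f stayed past 1.5-fold, and under median-ratio scaling none did. Eif3c, a core subunit and the most abundant eIF3 gene in the normal library, was lower at 151 and 106 TPM, a log2 ratio of -0.51 (-0.61 to -0.40), and was at least 1.5-fold lower under each of the 4 scalings. Eif3c was 2.25 times the level of Eif3h in normal liver and 0.936 times in diabetic liver, a difference of 1.27 (1.10 to 1.44) between their log2 ratios. The other 6 ratios lay within 1.5-fold.

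**Figure D4:**
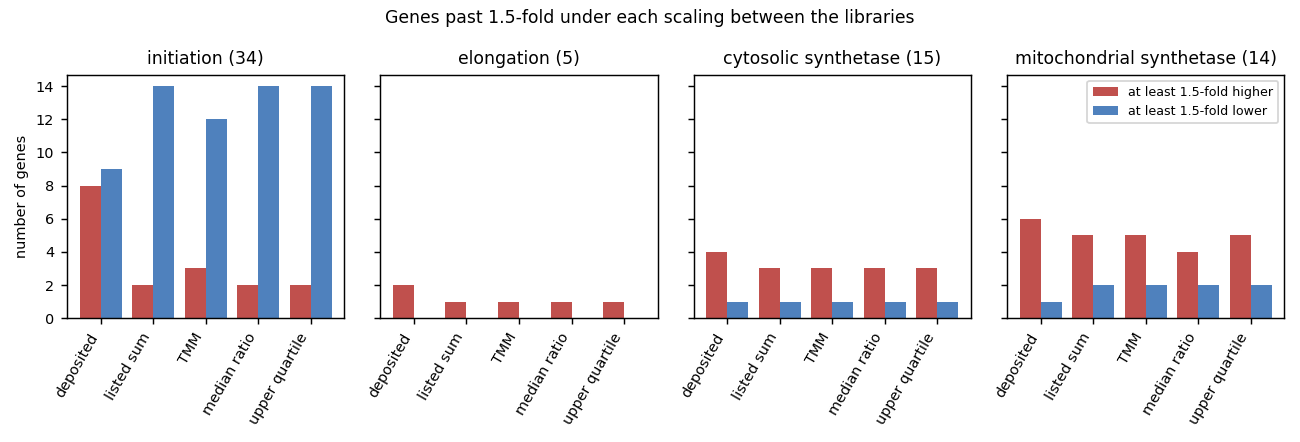
Number of genes at least 1.5-fold higher (red) and lower (blue) in the diabetic library, by group, for the deposited values and 4 scalings between the libraries. In the initiation panel 8 higher and 9 lower genes became 2 or 3 higher and 12 to 14 lower, whereas cytosolic synthetases kept 3 or 4 higher and 1 lower. Of all 8551 listed genes, not drawn here, 2941 higher and 1310 lower became 1874 to 2053 higher and 2023 to 2189 lower.

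For elongation, the abundant genes lay close to or above equality. Eef1b2, the exchange factor of eEF1A, was at 210.2 TPM (normal) and 324 TPM (diabetic), a 1.54-fold higher level with a log2 ratio of 0.62 (0.55 to 0.70) that was 0.37 under TMM scaling. Its partner Eef1d was at 147 TPM and 169 TPM, a log2 ratio of 0.20 (0.10 to 0.29) that fell below 0 under each of the 4 scalings. Relative to Eef1d, Eef1b2 was higher by 0.43 (0.31 to 0.55) on the log2 scale. Eif5a, an elongation factor despite its name, was at 288 TPM in normal and 292 TPM in diabetic liver, with a log2 ratio of 0.02 (-0.05 to 0.09) that was -0.23 under TMM scaling. Eef2k, the kinase that inhibits eEF2, had 5 and 23 reads, and its log2 ratio of 1.79 had an interval of 0.38 to 3.56. At 0.49 TPM in the normal library, Eef2k reached the mean of 1 TPM needed for listing only through the diabetic library. This favoured a higher call. Eef1e1, a component of the multi-synthetase complex in spite of its symbol, had 32 and 57 reads and a log2 ratio of 0.44 (-0.21 to 1.11).

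Of the 15 cytosolic synthetase genes 4 were at least 1.5-fold higher, 26.7%, where 34.4% of all listed genes were. Most of the others were close to equal. Rars, for arginine, was at 13.2 TPM in normal liver against 29.3 TPM in diabetic liver, a 2.22-fold higher level (log2 ratio 1.15, 0.86 to 1.44). Iars, for isoleucine, was at 6.52 TPM (normal) and 14.0 TPM (diabetic), a log2 ratio of 1.10 (0.69 to 1.53). Nars, for asparagine, was at 38.1 TPM and 73.9 TPM, a log2 ratio of 0.95 (0.78 to 1.13). All 3 remained at least 1.5-fold higher under each of the 4 scalings. The fourth gene past 1.5-fold was Vars, for valine, with 25 and 51 reads and an interval of -0.08 to 1.39, and it was within 1.5-fold under each scaling. Lower was Sars, for serine, at 11.3 TPM in normal and 6.88 TPM in diabetic liver, a log2 ratio of -0.71 (-1.12 to -0.31). Tars, for threonine, was by far the most abundant synthetase gene, at 171 TPM and 150.4 TPM, and its log2 ratio of -0.19 (-0.28 to -0.10) lay well within 1.5-fold. For the other 9 genes the log2 ratios ran from -0.14 for Qars to 0.47 for Farsb.

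Some synthetases travel in a common multi-synthetase complex, which also holds Eef1e1, given above, and 6 of its synthetase genes were listed. Of these Rars and Iars were at least 1.5-fold higher, and Dars, Lars, Mars and Qars were not. This share of 33.3% lay near the 34.4% of all listed genes. Mars, at 38.7 TPM in normal liver against 39.0 TPM in diabetic liver, had a log2 ratio of 0.01 (-0.18 to 0.20). The genes for the scaffold proteins of the complex were also read, and Aimp2 was at 4.57 and 10.1 TPM with a log2 ratio of 1.15 (0.66 to 1.66), while Aimp1 was at 16.1 and 18.9 TPM with a ratio of 0.23 (-0.05 to 0.53). Farsa and Farsb, the subunits of the phenylalanine enzyme, had log2 ratios of 0.32 and 0.47, and the difference of 0.15 (-0.29 to 0.59) was not detectable at this depth.

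Mitochondrial synthetases were mostly of low level, with a median over genes of 7.99 TPM for the mean of the 2 libraries. Rars2, for arginine, was at 5.55 TPM (normal) and 16.6 TPM (diabetic), a 2.99-fold higher level (log2 ratio 1.58, 1.16 to 2.03). Pars2, for proline, had 11 and 51 reads and a log2 ratio of 1.82 (0.86 to 2.91), the highest of the 68 genes. Ears2, for glutamate, was at 3.21 and 6.66 TPM, a log2 ratio of 1.05 (0.46 to 1.68). Aars2, Sars2 and Vars2, for alanine, serine and valine, were also past 1.5-fold, with log2 ratios of 0.86 (0.21 to 1.54), 0.62 (0.20 to 1.05) and 0.97 (-0.36 to 2.47). Sars2 was within 1.5-fold under each of the 4 scalings and Aars2 under median-ratio scaling. Vars2, at 0.68 TPM in the normal library, reached the mean of 1 TPM needed for listing only through the diabetic library. Fars2, for phenylalanine, was the most abundant gene of this group and the only one at least 1.5-fold lower, at 73.9 TPM in normal and 40.3 TPM in diabetic liver (log2 ratio -0.88, -1.04 to -0.72). Next in level came Lars2, for leucine, at 22.9 and 17.6 TPM (log2 ratio -0.38, -0.64 to -0.11), and Iars2, for isoleucine, at 16.3 and 23.3 TPM (log2 ratio 0.52, 0.25 to 0.80). Lars2 was at least 1.5-fold lower under each of the 4 scalings.

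Both the cytosolic and the mitochondrial gene were listed for 10 amino acids, which gave 11 pairs because the cytosolic phenylalanine enzyme has separate subunit genes. Comparing a gene with its counterpart inside each library removes the scaling between libraries. For serine the pair crossed over, since Sars2 was 0.612 times the level of Sars in normal liver and 1.54 times in diabetic liver, a difference of 1.33 (0.73 to 1.93) between the log2 ratios. For phenylalanine the difference had the opposite sign, and Fars2 was 6.73 times the level of Farsa in normal liver and 2.94 times in diabetic liver, a difference of -1.19 (-1.58 to -0.81). Against Farsb the difference was -1.34 (-1.66 to -1.03). For isoleucine it was -0.58 (-1.09 to -0.08), with the higher ratio in the cytosolic gene. For arginine both genes were higher, and their difference of 0.43 (-0.09 to 0.97) was not detectable at this depth. The intervals of the other 6 pairs, for cysteine, histidine, leucine, methionine, threonine and valine, also included 0, the widest of them for valine at -1.22 to 2.02.

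**Figure D5:**
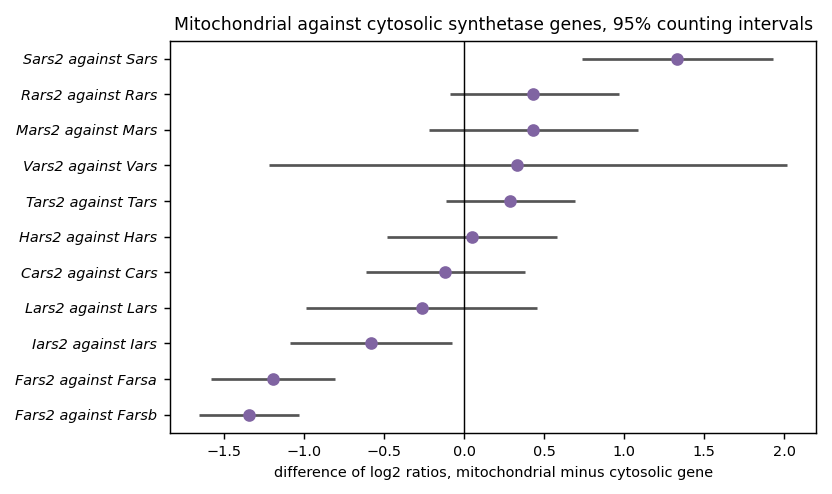
Difference of log2 ratios, mitochondrial minus cytosolic synthetase gene, for 11 pairs (points) with 95% exact counting intervals (bars). The intervals of Sars2 against Sars lie above 0 and those of Iars2 and of both Fars2 pairs below 0, while the other 7 include 0.

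Several synthetase genes are known targets of ATF4, the transcription factor induced when eIF2 alpha is phosphorylated or amino acids run short. ATF4 with a C/EBP partner reads the letters TGATGNAA, which were searched on both strands in RefSeq promoters (GRCm38.p6, 250 bases before to 50 after the start). Of the 68 genes 51 had a promoter in that table, and 4 of them, 7.84%, held the letters, where 4.51% of all genes with a promoter did. These were 3 of 9 cytosolic synthetase genes and 1 of 4 elongation genes, and 0 of 26 initiation and 0 of 12 mitochondrial synthetase genes. The matches are shown with the letters in capitals, as read on the gene's strand, where they appear as the reverse complement.
Iars, chr13:49682126-49682155, plus strand: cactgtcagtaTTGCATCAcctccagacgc
Tars, chr15:11399655-11399684, minus strand: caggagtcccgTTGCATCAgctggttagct
Gars, chr6:55037960-55037989, plus strand: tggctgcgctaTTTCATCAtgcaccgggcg
Eef2k, chr7:120851094-120851123, plus strand: ctttctgcttgTTTCATCAagctcagcttg

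The genes that held these letters did not share a direction. Iars was 2.15-fold higher in the diabetic library, Tars and Gars were within 1.5-fold with log2 ratios of -0.19 and 0.03, and Eef2k was higher on few reads. Rars, Nars and Vars had no entry in the promoter table. The search was chosen with the values known, and a match is a description of the sequence and not a binding site.

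Other genes of the amino acid response and of translation were read from lists of known members. Atf4 itself was at 115.8 TPM in normal liver against 112 TPM in diabetic liver, a log2 ratio of -0.05 (-0.16 to 0.06). Of 15 genes of the amino acid response looked up, 9 were listed. At least 1.5-fold higher were 6 of these, and 1 was lower, where 34.4% and 15.3% of all listed genes were. Under each of the 4 scalings 5 were higher, without Cebpb. Cth, the last enzyme of cysteine synthesis from methionine, was at 99.8 TPM and 613 TPM, a 6.14-fold higher level. Ddit3, the stress factor CHOP, had 31 and 126 reads (log2 ratio 1.63, 1.05 to 2.25), and Cebpb, a partner of ATF4, was at 119.7 and 188 TPM (0.65, 0.55 to 0.75). Vldlr, a lipoprotein receptor, had 0 and 34 reads and was at least 8.63-fold higher when the normal library was set to 3 reads, while the lower 95% counting limit of its log2 ratio was 2.73, which is a smaller fold. Trib3 and Sesn2 were also higher, with 15 and 39 reads and with 5 and 28 reads, and missed the FDR of 0.001. Chac1, which degrades glutathione, was lower with 30 and 26 reads and an interval of -1.42 to 0.21. Vldlr and Sesn2 were under 1 TPM in the normal library. They reached the mean of 1 TPM needed for listing only through the diabetic library, which favoured a higher call.

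Among the factors that mitochondria use for their own translation, 3 of the 8 listed genes, 37.5%, passed 1.5-fold upwards, a share near the 34.4% of all listed genes, and 0 downwards, with 1 lower, Mtrf1l, under each of the 4 scalings. Gfm1, a mitochondrial elongation factor, was at 8.85 TPM (normal) and 35.6 TPM (diabetic), a log2 ratio of 2.01 (1.68 to 2.35). Gfm2, for ribosome recycling, was at 3.11 and 7.18 TPM (1.21, 0.62 to 1.83) and Mtif2, for initiation, at 2.92 and 7.11 TPM (1.28, 0.68 to 1.93). These genes, like Rars2, Pars2 and Ears2, stayed past 1.5-fold under each of the 4 scalings.

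Release and rescue factors diverged. Gspt1, the GTPase that works with the release factor eRF1, was at 7 TPM in normal and 2.44 TPM in diabetic liver, a log2 ratio of -1.52 (-2.16 to -0.91), whereas the related rescue GTPase Hbs1l was at 9.83 and 22.6 TPM, a log2 ratio of 1.20 (0.88 to 1.54). The other 3 listed genes of this kind were within 1.5-fold, though Pelo was at least 1.5-fold lower under each of the 4 scalings. Of the 4 listed genes for poly(A)-binding proteins and their partners, none passed 1.5-fold. Pabpc1, the main cytoplasmic poly(A)-binding protein, was at 157 TPM and 124 TPM (log2 ratio -0.35, -0.45 to -0.25), and was at least 1.5-fold lower under each of the 4 scalings.

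Among the signalling genes that act on initiation, Mknk1 and Mknk2, the kinases of eIF4E, were at 5.64 and 11.2 TPM and at 12.0 and 19.8 TPM, with log2 ratios of 1.00 (0.55 to 1.46) and 0.72 (0.41 to 1.04). Mknk1 stayed past 1.5-fold under each of the 4 scalings and Mknk2 under none. Rps6kb1, an S6 kinase, had 27 and 56 reads and an interval of -0.03 to 1.38 and was within 1.5-fold under each scaling, and Mtor had a log2 ratio of 0.24 (-0.09 to 0.57). Mcts1 and its retrogene copy Mcts2, which help to recycle the small subunit, had log2 ratios of 0.75 (0.44 to 1.07) and 1.30 (0.92 to 1.69), and as copies their values are less certain. Mcts1 was within 1.5-fold under each of the 4 scalings, and Mcts2 was not. Sepsecs, which makes selenocysteine on its tRNA, had 14 and 61 reads and a log2 ratio of 1.73 (0.87 to 2.68).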

How the data were processed

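Liver RNA of 1 normal and 1 diabetic library was profiled with DpnII tags on an Illumina 1G sequencer. The authors removed adaptors, compared high quality clean tags with RefSeq and normalized each gene to TPM. The deposited values rise in equal steps whatever the gene, so they are RPM, tags per 1000000 clean tags, which the authors gave to 2 decimals with 0.01 in place of 0 and genes with a mean under 1 TPM left out. The submitters' processing notes name mm9. The aligner and the counting of tags common to several genes are not given in the sources used here. Number of value columns not used: 0.

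Reads were computed from the steps, and 8513 of 8513 and 8536 of 8537 values above the placeholder were whole reads within 0.01 TPM (99.99%). Fold changes are of deposited values with no pseudocount, and a gene was counted at 1.5-fold or more. The study required the same fold and an FDR under 0.001. Ratios have 95% Clopper-Pearson intervals, and differences of ratios have exact conditional intervals of the odds ratio. A two-sided exact binomial test with Benjamini-Hochberg adjustment over 8551 genes, together with 1.5-fold, called 2655 genes. These reads come from rounded values, and the binomial test served as an alternative only.

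Genes named are the 3 most abundant of each group, those past 1.5-fold, the eIF2, eIF2B, kinase, eIF4, eIF4E-binding and eEF genes, synthetases with genes for both compartments, and pathway genes past 1.5-fold. Atf4, Mtor, Aimp1, Pabpc1, Pelo, Mtrf1l, Dars, Qars and Gars fall outside this rule and were named after their values were seen. Members and lists were chosen with earlier results of these data known. TMM trimmed 30% of log ratios and 5% of abundances at each end, median-ratio scaling used genes of at least 10 TPM, and upper-quartile scaling used the 75th percentile. TPM takes no account of transcript length or of the number of tag sites. Computations were tested on simulated reads. The tools were scipy 1.17.1 and numpy 2.4.6 under Python 3.11.15, with pandas 2.3.3 for tables and matplotlib 3.10.9 for plots.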

Additional observations from a re-analysis of the deposited data

How the results depend on the processing

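With 1 library per group no replicate could be left out. No paired analysis was possible because each group has 1 library. Over all 68 genes, 20 were higher and 11 lower in the deposited values. The number higher was 11 with the listed genes' sum as the scale, 12 under TMM, 10 under median-ratio and 11 under upper-quartile scaling. It was 8 at a 2-fold threshold, and 13 of the 53 genes whose mean reached 5 TPM. The shares of all listed genes at 2-fold and at that mean were not computed. The number lower was 17 with that sum and under median-ratio and upper-quartile scaling, 3 at 2-fold, and 7 with an FDR under 0.001 in the exact binomial test. Under median-ratio scaling the median log2 ratio was -0.17 over the 68 genes, -0.34 for initiation, 0.13 for elongation, -0.27 for cytosolic and 0.17 for mitochondrial synthetases. Where the mean had to reach 5 TPM, the elongation median was 0.20 and the mitochondrial median was 0.10. The 5 mitochondrial genes left out (Aars2, Ears2, Mars2, Pars2 and Vars2) all had ratios above 0. The scalings subtract a constant from every log2 ratio, which sets these directions. A gene past 1.5-fold could not change sign under these scalings, because the largest shift of 0.31 is smaller than the log2 threshold of 0.585. An equal pseudocount on both values cannot change a sign either, and a filter leaves the ratios as they are. Pseudocounts of 0.1 and 1 TPM moved no ratio beyond its counting interval. Genes of few reads, such as Vars2 and Eif4ebp2, have intervals too wide to place them.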
